A study of Sus scrofa with 33 samples.

Results

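The 5 genes SELENOF, LZTFL1, RGP1, C1D and WDR3 were taken up because in pig pituitary at least 1 array probe of each gave different signals in Large White and Creole pigs while other probes of the same gene did not. Their probes were found by gene name in the array files (SELENOF also under its older name SEP15), or through an accession, and numbered 21 of the 60305 probes on the array. Of these, 20 were among the 45667 probes of the deposited table of log2 values. The probe with the largest breed difference in each gene was chosen by that difference, so all values of Large White minus Creole below are a description of what was selected on.

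The samples were pituitary glands of castrated male pigs, 1 Agilent array with 1 colour per animal, from the breeds Large White (LW) and Creole and from the F1 of both. Glands were taken under thermoneutral conditions (TN, 24 °C in the labels) or after exposure to heat (HS, 30 °C in the labels and 32 °C in the text of the series, for 5 days by that text and for 4 or 5 by the methods). The TN arrays numbered 5 for LW, 5 for Creole and 6 for F1, and the HS arrays 6, 6 and 5 in that order. The methods describe littermates in each breed, housed by breed in pens, and neither litter nor pen is in the labels. p-values therefore treat related animals as separate samples. The array LW HS 3 was LW by its title and Creole by its breed field. It was analysed as LW. On 6 of the 7 probes with a breed difference described below it lay outside the range of the Creole arrays, and on RGP1 A_72_P494650, at 8.57, it lay inside that range and was the highest LW array. The 7 probes were picked with this array counted as LW, so its place on them cannot decide its breed. The methods place the tissue in the anterior lobe. GH1, PRL and POMC, which mark its hormone cells, were at means of 19.02, 18.87 and 19.01 on the log2 scale, while AVP and OXT of the posterior lobe were also bright, at 16.98 and 15.66. TSHB, the thyrotrophin subunit, ran from 8.55 to 16.34 over the 33 arrays. Of 16 marker genes of the lobes, blood, endothelium and leukocytes, 1 passed limma's test for LW minus Creole, the endothelial CDH5 at 0.41 (adjusted p = 0.045), while PECAM1 of the same cells was at 0.19, and 0 passed for F1 minus the parental mean. TSHB at -1.47 and PCSK2 of the intermediate lobe at 0.88 differed more but did not pass (adjusted p = 0.153 and 0.112 in limma). The part of these markers in the breed differences below was not tested. In bulk tissue, fewer cells of a type and less RNA per cell cannot be told apart.

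SELENOF is a selenoprotein of the endoplasmic reticulum (ER) that binds the glucosyltransferases UGGT1 and UGGT2, which check the folding of glycoproteins. LZTFL1 regulates the entry of the BBSome, a complex that carries membrane proteins in and out of cilia. RGP1 acts with RIC1 to activate the Golgi GTPase RAB6, which returns cargo from endosomes. C1D is a nuclear cofactor of the RNA exosome, and WDR3 belongs to the small subunit processome that matures ribosomal RNA. A probe on such an array is a short DNA strand. Its signal can fall with less of the transcript, with a transcript form that lacks the stretch, or with a base difference under the probe, and on these arrays these cannot be told apart.

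The sequences below are shown because overlapping probes of 1 gene gave different breed differences. All probes were 60 bases long. The SELENOF probe with the breed difference, CUST_56_PI427286967, overlaps the 5′ end of 2 other SELENOF probes, with mismatches, by its last 30 bases (A_72_P562884) and its last 27 bases (A_72_P629475). Capitals mark the bases at which the probe and A_72_P562884 differ (first pair), or at which A_72_P629475 differs from CUST_56_PI427286967 (last line).

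CUST_56_PI427286967: tctAccattgatcagtctcttaccgAgagg
A_72_P562884: tctTccattgatcagtctcttaccgTgagg
A_72_P629475: TTcattgatcagtctcttaccgTgagg

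Counted from 1 at the 5′ end of CUST_56_PI427286967, which is given first, the substitutions against A_72_P562884 are A34T and A56T, and those against A_72_P629475 are A34T, C35T and A56T. The first 30 bases of CUST_56_PI427286967 are not shared with either probe.

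For RGP1, 3 probes tile 1 stretch, each shifted towards the 3′ end of the one before. Shown are the last 30 bases of each, with capitals for the bases past the end of the preceding probe.

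A_72_P287794: acttatttattcagaataaattggcagctg
A_72_P494650: taaattggcagctgCTAGTGGTTTCCCTGG
A_72_P501524: gtggtttccctggAAGTGGCAGCAGCAGTG

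A_72_P494650 shares 44 bases with A_72_P287794 and reaches 16 bases further. A_72_P501524 shares 43 bases with A_72_P494650 and 27 with A_72_P287794, and reaches 33 bases past the latter. No mismatch lay in these overlaps. The other probes with a breed difference overlapped no probe of their gene by 20 bases or more, and their middle 30 bases, positions 16 to 45, are given to identify them, with no part in capitals.

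LZTFL1 O10452: gaagagacttactcttttgcattagtataa
C1D A_72_P220612: gataggatgactccagcctttattctgttt
WDR3 A_72_P245437: acctttaaatgaagtatttgtttcactaga
WDR3 A_72_P689619: ttatctggaacagcttcctttaagttaacc

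None of the 21 probes shared a run of 20 bases, on either strand, with a probe of another gene or an unnamed probe on the array.

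In limma's fit across all probes, 7 of the 20 probes passed an adjusted p of 0.05 for LW minus Creole. Because the genes were chosen for this, nothing is read from that count beside the 6.65% of all probes that passed. The 7 probes lay in all 5 genes. SELENOF, LZTFL1 and C1D had 1 each, and RGP1 and WDR3 had 2 each, so for the last 2 genes the breed difference was not that of a single probe. LW was lower on 6 of them and higher on the C1D probe. The closest probe outside the threshold was A_72_P016366 of WDR3, with LW minus Creole at 0.15. The closest inside was A_72_P494650 of RGP1, with LW minus Creole at -0.54. On 4 of the 7 probes (SELENOF, LZTFL1, C1D and RGP1 A_72_P501524) the LW and Creole arrays did not overlap, as on 0.287% of all probes.

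**Figure D1:**
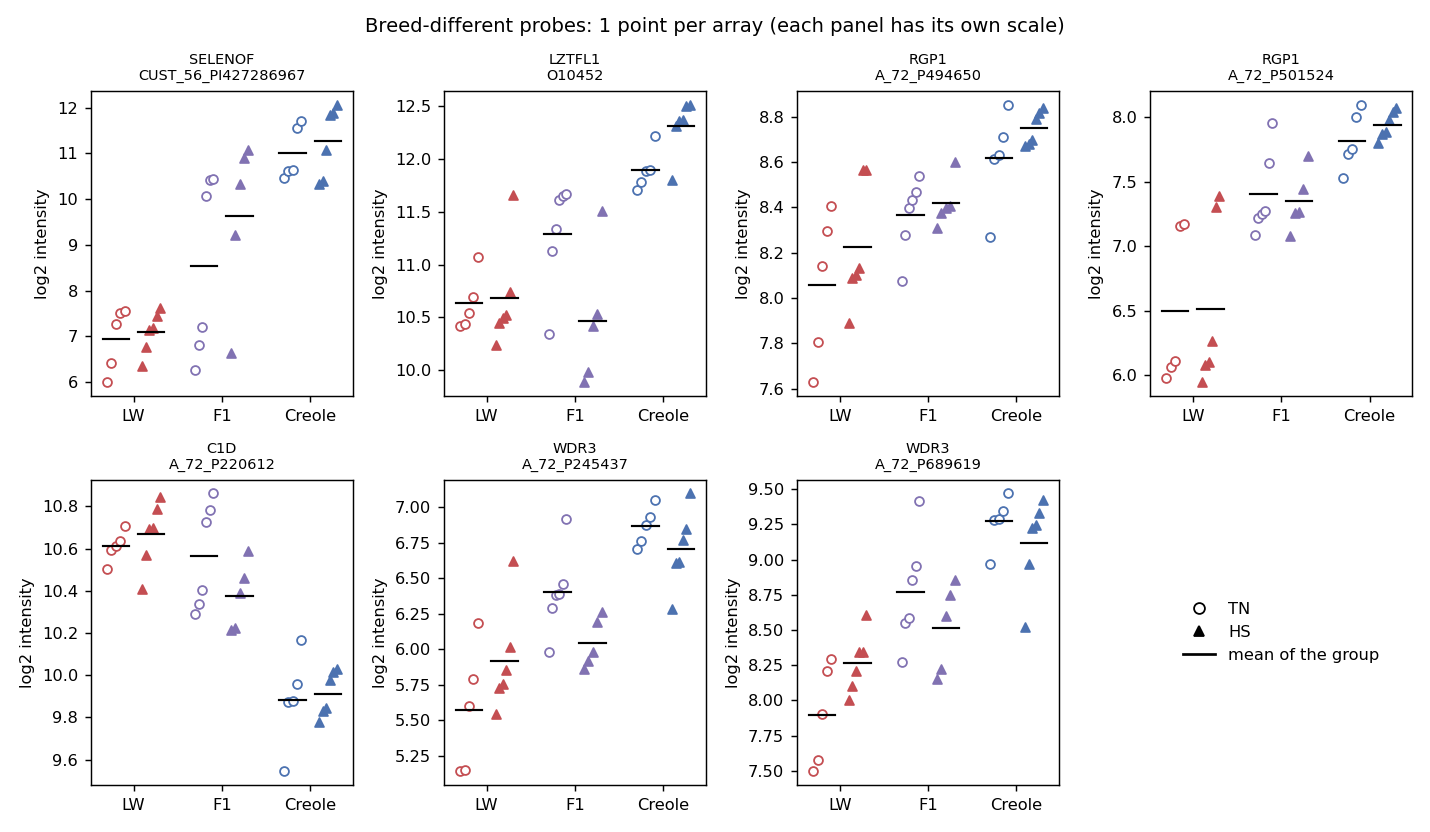
log2 intensity of each array on the 7 probes with a breed difference, by breed, with open circles for TN, filled triangles for HS and bars at group means. F1 arrays of the SELENOF probe fall in a set of 4 from 6.27 to 7.21 and a set of 7 from 9.21 to 11.07.

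SELENOF had the largest breed difference of the 5 genes. On CUST_56_PI427286967 the LW arrays ran from 6.0 through a median of 7.18 to 7.63, and the Creole arrays from 10.34 through 11.08 to 12.06. Means were 7.03 ± 0.56 (SD, n = 11) in LW and 11.14 ± 0.67 (SD, n = 11) in Creole, a difference of -4.12 (95% interval -5.09 to -3.14), or 17.3-fold on the linear scale. The probe was well above background on all 33 arrays, LW included. The other 5 SELENOF probes gave LW minus Creole between -0.17 and -0.02, and 0 of them passed. They include A_72_P562884 (-0.02) and A_72_P629475 (-0.14), which overlap the last 30 and 27 bases of the probe with the difference.

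The F1 arrays on CUST_56_PI427286967 split into separate sets. F1 TN 1, F1 HS 5, F1 TN 2 and F1 TN 6 were at 6.27, 6.64, 6.80 and 7.21, all within the LW range. F1 HS 2 was at 9.21, F1 TN 4 at 10.07 and F1 HS 1 at 10.33, between the LW and Creole ranges. F1 TN 5, F1 TN 3, F1 HS 4 and F1 HS 3 were at 10.41, 10.45, 10.90 and 11.07, within the Creole range. The widest gap, 2.0, lay between 7.21 and 9.21 and both temperatures stood on either side of it. The SD of the F1 arrays around their temperature means was 1.91, against 0.58 in LW and 0.70 in Creole, and exceeded that of 99.99% of all probes in F1, whose median was 0.19. On the overlapping A_72_P562884 and A_72_P629475 the F1 SD was 0.59 and 0.62, above that of 98.2% and 98.6% of all probes. There it was 0.28 and 0.29 in LW and 0.20 and 0.23 in Creole. On O9245, A_72_P583496 and A_72_P232467 the F1 SD was 0.22, 0.28 and 0.20. On the other 5 SELENOF probes the 4 arrays of the lower set ranked from 3 to 11 of the 11 F1 arrays, counted from the lowest. F1 TN 1, the lowest on CUST_56_PI427286967, was the highest of the F1 arrays on 3 of the other 5 probes.

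The RGP1 probes gave a graded breed difference along the tiled stretch. LW minus Creole was 0.09 (95% interval -0.02 to 0.21) on A_72_P287794, -0.54 (-0.72 to -0.36) on A_72_P494650, 16 bases further, and -1.38 (-1.72 to -1.05) on A_72_P501524, 33 bases further. The remaining probes A_72_P014751 and O612 were at -0.13 and 0.01, and neither passed. On A_72_P501524 the LW arrays themselves fell into a set of 7 from 5.94 to 6.26 and a set of 4 from 7.16 to 7.39, with a gap of 0.89. The Creole arrays ran from 7.53 through 7.89 to 8.10. LW TN 3, LW TN 4, LW HS 3 (the array with 2 breed labels) and LW HS 2 made up the upper set, at 7.16, 7.17, 7.31 and 7.39. All of these but LW TN 4 came from 1 slide, the glass plate that carries several arrays, and they were all of its 3 LW arrays. LW minus Creole within that slide was -0.62, against -1.92 to -1.27 in the other 4 slides, and the part of the slide in the split was not tested. The same 4 arrays, singled out after their values were seen, were the 4 highest LW arrays on A_72_P494650, at 8.41, 8.30, 8.57 and 8.56, while 3 of them were among the 4 lowest on A_72_P287794. F1 arrays on A_72_P501524 ran from 7.08 through 7.27 to 7.95, with 7 in the LW range, 3 in the Creole range and 1 between. The 7 were in the LW range only through its upper set, since all F1 arrays lay above the lower set, which ended at 6.26. The SD of the F1 arrays, 0.29, was below the 0.64 of LW.

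**Figure D2:**
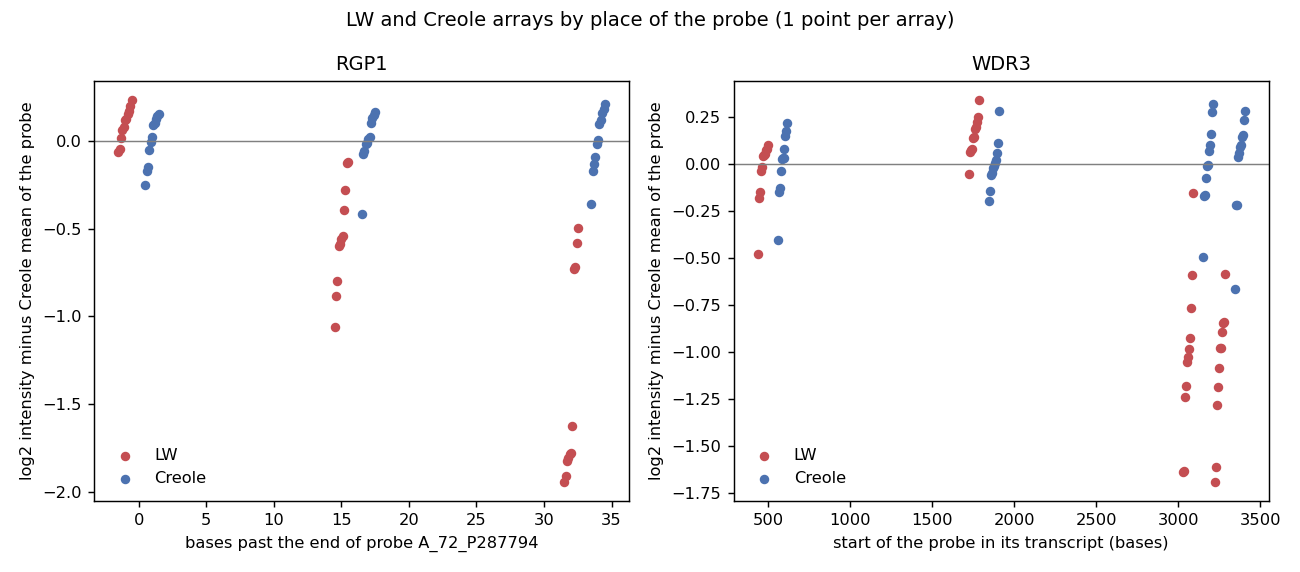
LW and Creole arrays as log2 intensity minus the Creole mean of the same probe, for the 3 overlapping RGP1 probes by the bases by which each reaches past A_72_P287794, and for 4 WDR3 probes by their start in 1 transcript (points are spread sideways). LW arrays fall below the Creole mean with distance in RGP1 and in WDR3 on the probes starting at 3119 and 3313.

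In WDR3, the probes with a breed difference were those nearest the 3′ end of the transcript in the files. On A_72_P689619, which starts at base 3313, LW arrays ran from 7.50 through 8.21 to 8.61 and Creole arrays from 8.52 through 9.28 to 9.47. Means were 8.10 ± 0.33 in LW and 9.19 ± 0.27 in Creole (SD, n = 11 each), and the difference was -1.09 (95% interval -1.36 to -0.81). The breeds met there through 1 Creole array, CR HS 3, at 8.52, and 1 LW array, LW HS 2, at 8.61. A_72_P245437, starting at base 3119, differed by -1.02 (-1.30 to -0.74), with LW from 5.14 through 5.75 to 6.63 and Creole from 6.28 through 6.77 to 7.10. It was well above background on 9 of 11 LW arrays and on all Creole arrays, and with the processed signal its difference was -1.79. The probes starting at bases 526 and 1816 were at -0.04 and 0.15, and O13980, with no position in the files, was at 0.14. None of these 3 passed, and all were dim, with means over all arrays of 6.09, 5.69 and 5.99, above those of 15.3%, 6.64% and 13.3% of all probes, against 8.65 for A_72_P689619. A_72_P245437, which had a breed difference, was about as dim, at 6.26, above 18.6% of all probes. The one starting at base 1816, A_72_P016366, was well above background on 31 of 33 arrays. A second probe with the sequence of A_72_P016366, not in the table and read from the scanner files, had means of 5.77 ± 0.10 in LW and 5.68 ± 0.15 in Creole.

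The pair of WDR3 probes varied together over the arrays, with a Pearson r of 0.94 over 33 arrays that share breed and slide, given as a description. CR HS 3 was the lowest Creole array and F1 TN 6 the highest F1 array on both. F1 arrays had their mean at 8.66 ± 0.37 (SD, n = 11) on A_72_P689619, between the breeds, with 3 in the LW range alone, 5 in the Creole range alone and 3 in both.

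LZTFL1 was measured by 2 probes. On O10452 the LW arrays ran from 10.23 through 10.52 to 11.66 and the Creole arrays from 11.71 through 12.22 to 12.51, a difference of -1.46 (95% interval -1.88 to -1.05). The other probe, A_72_P376488, had means of 12.89 ± 0.16 in LW and 12.92 ± 0.08 in Creole (SD, n = 11 each). On O10452, 8 F1 arrays lay in the LW range, 1 between the ranges and 2 below both, and 0 lay in the Creole range. The top of that LW range, 11.66, was LW HS 4 alone. Without it, a setting chosen after seeing the data, the LW range ended at 11.07, and 3 F1 arrays lay within it, 6 between the ranges and 2 below both. The lowest were F1 HS 3 and F1 HS 1 at 9.89 and 9.98. The SD of the F1 arrays was 0.57, against 0.42 in LW and 0.23 in Creole. On A_72_P376488, without a breed difference, it was 0.43, against 0.16 in LW and 0.08 in Creole.

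C1D was the gene with LW above Creole. A_72_P220612, named through an accession in its description, ran from 10.41 through 10.64 to 10.84 in LW and from 9.55 through 9.88 to 10.16 in Creole, a difference of 0.74 (95% interval 0.59 to 0.90). O407, the probe that carries the gene's name, differed by -0.00 (-0.14 to 0.13), with a mean of 6.79 over all arrays against 10.34 for A_72_P220612. Of the F1 arrays on A_72_P220612, 4 lay in the LW range, 6 between the ranges and 1, F1 TN 6 at 10.86, above both. Their SD was 0.22, and it exceeded that of 60.9% of probes in F1.

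**Figure D3:**
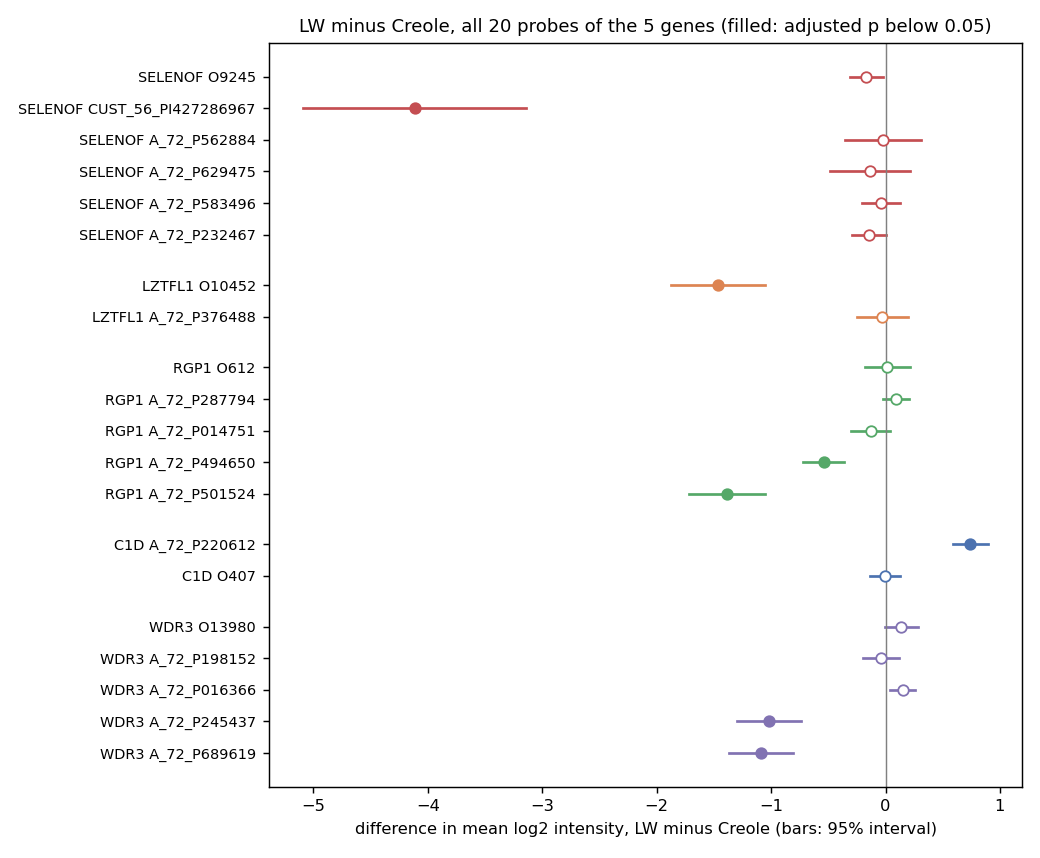
LW minus Creole on the log2 scale for the 20 probes, with 95% intervals and filled points for an adjusted p below 0.05. Each gene has filled points off 0 beside open points near 0, from -4.12 for SELENOF to 0.74 for C1D.

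Within each of the 5 slides, which held 1 to 3 arrays of each of LW and Creole, the 7 differences kept their sign. They ran from -4.34 to -3.69 for SELENOF, from -1.94 to -1.32 for LZTFL1, from -1.92 to -0.62 for RGP1 A_72_P501524, from -0.87 to -0.20 for RGP1 A_72_P494650, from 0.54 to 0.98 for C1D, and from -1.92 to -0.64 and -1.47 to -0.63 for the WDR3 probes A_72_P689619 and A_72_P245437. The slide with 3 of the upper RGP1 arrays gave the smallest difference for both RGP1 and both WDR3 probes. With LW HS 3 left out the SELENOF difference was -4.11, and with it taken as Creole -3.78. At TN alone and HS alone LW minus Creole was -4.04 and -4.18 on the SELENOF probe, -1.27 and -1.63 on the LZTFL1 probe, and 0.73 and 0.75 on the C1D probe. It was -1.33 and -1.43 on RGP1 A_72_P501524 and -0.56 and -0.53 on A_72_P494650. The WDR3 probes went from -1.37 to -0.85 on A_72_P689619 and from -1.29 to -0.78 on A_72_P245437.

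The place of the F1 arrays against the mean of LW and Creole was not used to choose the genes, and it was tested. Of the 20 probes, 5 passed, all lower in F1 and all of SELENOF, whereas 2.88% of all probes passed and 1.78% passed as lower. These 5 were the SELENOF probes that did not pass for LW minus Creole, although the 95% interval of that difference on O9245, -0.31 to -0.02, did not contain 0. F1 minus the parental mean was -0.71 on A_72_P629475 (adjusted p = 0.00811 in limma), -0.66 on A_72_P562884 (adjusted p = 0.00947 in limma) and -0.32 on O9245 (adjusted p = 0.00476 in limma). On A_72_P583496 and A_72_P232467 it was -0.30 and -0.29, with adjusted p of 0.0184 and 0.00956 in limma. Of the 11 F1 arrays, 10 or 11 lay below the parental mean on each of the 5 probes.

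On O9245 the F1 arrays ran from 14.04 through 14.55 to 14.83, the LW arrays from 14.57 through 14.80 to 15.04 and the Creole arrays from 14.63 through 14.96 to 15.08, so the groups overlapped. F1 HS 2 was the lowest F1 array on all 5 probes and the lowest or highest F1 array on 11 of the 20 probes, as it was on 28.0% of all probes. Without it, the 5 probes still passed, with differences of -0.55, -0.51, -0.26, -0.23 and -0.23 for A_72_P629475, A_72_P562884, O9245, A_72_P232467 and A_72_P583496. With the processed signal scaled to its 75th percentile, 2 of the 5 passed, and O9245, A_72_P583496 and A_72_P232467 were at -0.25, -0.27 and -0.25 with adjusted p of 0.0938, 0.114 and 0.0907 in limma. The 5 probes are of 1 gene and 2 of them overlap by 57 bases, so they are not independent.

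The SELENOF probe with the breed difference had an F1 mean at -0.01 from the parental mean, with a 95% interval from -0.86 to 0.84 that contains the values of the other 5 probes. Whether it differed from them in this was not tested. For the other genes, F1 minus the parental mean was -0.49 (95% interval -0.84 to -0.13, adjusted p = 0.126 in limma) on LZTFL1 O10452, -0.31 (-0.51 to -0.12, adjusted p = 0.065 in limma) on LZTFL1 A_72_P376488 and 0.21 (0.07 to 0.34, adjusted p = 0.0817 in limma) on C1D A_72_P220612. None passed. RGP1 A_72_P501524 was at 0.19 (-0.10 to 0.48), and the WDR3 probes A_72_P689619 and A_72_P245437 at 0.01 (-0.23 to 0.25) and -0.04 (-0.28 to 0.21).

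**Figure D4:**
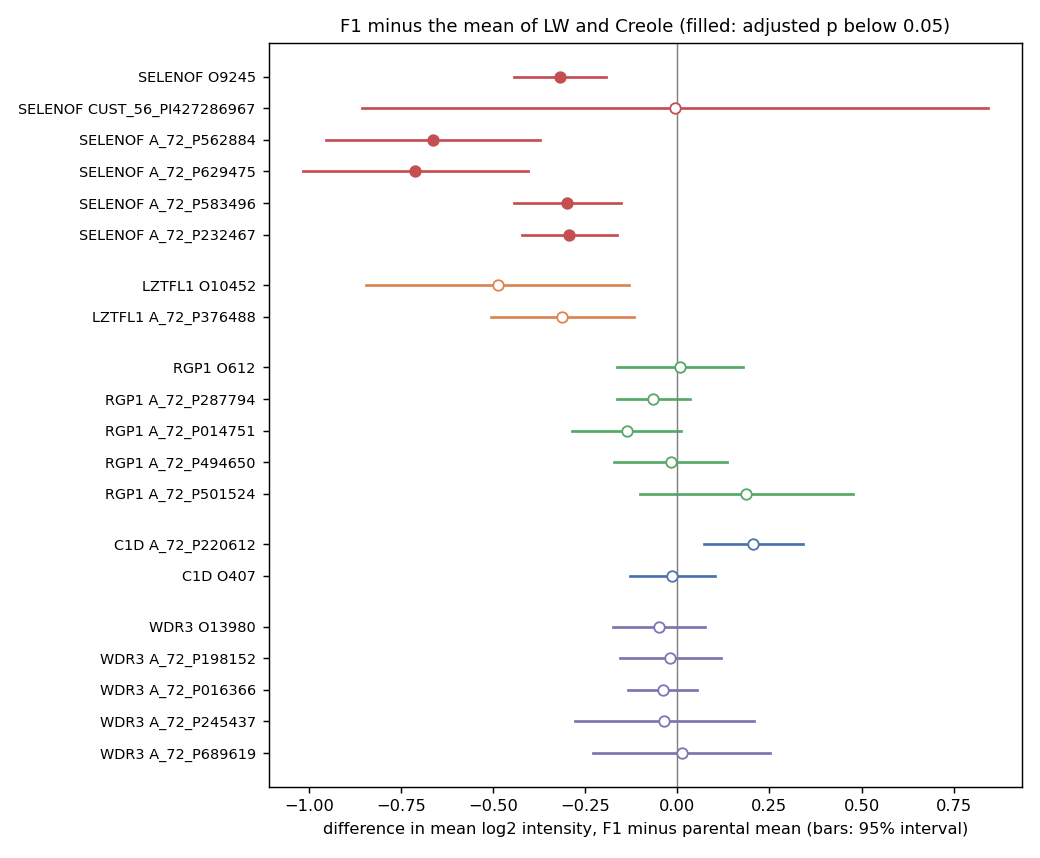
F1 minus the mean of LW and Creole on the log2 scale for the 20 probes, with 95% intervals and filled points for an adjusted p below 0.05. The 5 filled points are the SELENOF probes that did not pass for LW minus Creole, from -0.71 to -0.29.

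Heat moved none of the 20 probes past the threshold, and 0.0219% of all probes passed. In limma the smallest adjusted p was 0.284, and 2 probes had an unadjusted p below 0.05, as did 8.77% of all probes. Of the 16 marker genes, HBB of red cells passed, with HS minus TN at -1.15 (adjusted p = 0.0301 in limma). The 2 probes were WDR3 O13980, with HS higher by 0.18 (95% interval 0.06 to 0.30) on 13 of 17 HS arrays relative to the TN mean of their breed (0.41 in LW, 0.07 in Creole and 0.05 in F1), and RGP1 A_72_P287794, with HS higher by 0.09. On the SELENOF probe with the breed difference HS minus TN was 0.50 (-0.30 to 1.30). On LZTFL1 O10452 it was -0.12 (-0.46 to 0.22), on RGP1 A_72_P501524 0.03 (-0.24 to 0.30), on C1D A_72_P220612 -0.04 (-0.16 to 0.09) and on WDR3 A_72_P689619 -0.01 (-0.24 to 0.21).

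The interaction of breed and temperature passed for 0% of all probes and for none of the 20, with limma's adjusted p at 0.926 or above. Unadjusted p was below 0.05 for 5 of the 20 probes and for 4.25% of all probes. LZTFL1 O10452 had the smallest, with HS minus TN at 0.05 in LW, 0.41 in Creole and -0.82 in F1. The WDR3 probe A_72_P689619 was at 0.37 in LW, -0.15 in Creole and -0.26 in F1, and A_72_P245437 at 0.35, -0.16 and -0.36. WDR3 O13980 is given by breed above, and C1D O407 was at -0.18, 0.11 and -0.18.

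Genes that work with the 5 were taken from 5 lists by function, of which 80 of 106 genes had a probe in the table. Of their 157 probes, 5 passed for LW minus Creole, 2 higher in LW and 3 lower, or 3.18% against 6.65% of all probes, and 2 to 9 passed under the alternative settings. The median difference was 0.01, against -0.00 over all probes. For the ER glycoprotein folding list of SELENOF, 1 of 24 probes passed, 1 of the GANAB probes, the catalytic subunit of glucosidase II, at 0.15 (adjusted p = 0.038 in limma). UGGT1 was at -0.09. In the BBSome list of LZTFL1, 1 of 21 passed, a probe of TTC8, a BBSome subunit, at 0.31. In the RAB6 and Golgi list of RGP1, 2 of 35 passed, the Golgi tethering subunits COG3 at -0.31 and COG2 at -0.24, each on 1 of its probes, while RIC1 and RAB6A were at 0.06 and 0.06.

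None of the 28 probes of the RNA exosome list of C1D passed. Its EXOSC10 probes were at 0.07 and 0.07 and its TSNAX probes at 0.08 and -0.05. In the small subunit processome list of WDR3, 1 of 49 passed, RCL1, which cleaves the ribosomal precursor RNA, at -0.41 on 1 of its probes (adjusted p = 0.00491 in limma), and TBL3 was at 0.01. UGGT2, BBS9, MPHOSPH6 and PWP2 had no named probe in the table. Heat passed for 0 of the 157 probes.

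The 5 genes on either side of each gene in the Sscrofa11.1 gene table had 66 probes for 28 genes. Of these, 10 probes of 9 genes passed for LW minus Creole, or 15.2% against 6.65% of all probes, and 6 probes passed with LW HS 3 taken as Creole. CREB3, a transcription factor of the ER membrane and 2 genes from RGP1, had 2 probes higher in LW, by 0.41 and 0.46, and another at 0.05. On the probe at 0.46 the LW and Creole arrays did not overlap. GBA2, next to RGP1, was at 0.36 on 1 probe and -0.19 on the other. HS2ST1, next to SELENOF, was at -0.41 on 1 of its probes, and CLCA4, 5 genes from SELENOF, at 0.82. CNRIP1, 5 genes from C1D, was at -0.46 on 1 probe and 0.01 on the other. SACM1L and LARS2 near LZTFL1 were at -0.28 and 0.28, ODF2L near SELENOF at -0.30 on 1 probe and 0.30 on another that did not pass, and FAM46C near WDR3 at 0.32. HS2ST1, ODF2L, CNRIP1 and FAM46C each had other probes that did not pass. How common this is among all genes with several probes was not counted.

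Over the 33 arrays, named genes outside the 5 genes were ranked by the Pearson r of their probes with each probe with the largest breed difference. The ranking is a description, since the arrays share breed and slide, and the most alike genes are given. For SELENOF they were GHR (0.81), CNTNAP4 (0.78) and USF1 (0.78). For LZTFL1 they were COL21A1 (0.76), PCBP2 (0.73) and MYL6B (0.71), and for RGP1 CYCS (0.80), RNF216 (0.77) and YBX2 (0.75). For C1D they were ARMC4 (0.86), PARM1 (0.84) and PFDN4 (0.84), and for WDR3 SPAG6 (0.78), USF1 (0.77) and C1GALT1 (0.76). Of the 5 genes, left out of this ranking, WDR3 (0.715) lay above MYL6B for LZTFL1. SELENOF (0.7517) lay above YBX2 for RGP1. Among all probes, named or not, the most alike was another probe of the same gene for RGP1 (A_72_P494650, 0.89) and WDR3 (A_72_P245437, 0.94), a probe without a name for C1D (A_72_P352383, 0.95) and LZTFL1 (A_72_P234997, 0.81), and that of GHR for SELENOF. Within the gene, r was between 0.03 and 0.34 for the SELENOF probe with the other 5 probes of its gene, 0.10 for LZTFL1 and 0.04 for C1D. With the remaining 3 probes of the gene it was between -0.40 and 0.21 for RGP1 and between -0.43 and 0.09 for WDR3.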

How the data were processed

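The members and gene lists were chosen with earlier results of these data known. The authors deposited a table of log2 values, for which they quantile-normalized median spot intensities between arrays and corrected no background, and the scanner files. Per the file headers these hold intensity values from Agilent Feature Extraction 10.10.1.1 for each spot and other 0 or 1 marks, such as well above background. The share of spots well above background was 73.5% to 82.2%, depending on the array. The log2 table, with 59 missing values, was used as deposited, and rebuilding it from the scanner files gave a median absolute difference of 0.00022. The number of arrays limits the precision.

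Probes were named from the files' gene names, synonyms, gene IDs or accessions in a pig gene table (Sscrofa11.1, for names and neighbours only), and 22478 of 45667 received a symbol. limma 3.58.1 in R 4.3.3 was fitted over all probes, with empirical Bayes moderation and Benjamini-Hochberg adjustment over all 45667 probes at 0.05. LW minus Creole, F1 minus the parental mean and HS minus TN came from a fit of breed plus temperature. The interaction, HS minus TN within a breed and LW minus Creole within a temperature came from a fit of the 6 groups of both. Genome positions, exons and UTRs of the probes are not given in the sources used here. Breed differences were thus adjusted for temperature, with the same HS minus TN effect for all breeds. The study's random terms (pen, slaughter, father, mother) are not in the labels and were not fitted. The script was tested on simulated data. Named were all member probes, the listed direct partners, and partner and neighbour genes with a called probe (at most 8 per list). Also given were the 3 named genes, other members left out, most like each gene's probe with the largest breed difference. Figures were drawn with matplotlib 3.10.9. Alternatives were the values rebuilt from the scanner files, the processed signal scaled to its 75th percentile, normexp background correction with an offset of 50, a filter on probes well above background on all arrays, both readings of the array with 2 breed labels, slide as a fixed or random block, array weights, and leaving out each array.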

Additional observations from a re-analysis of the deposited data

Results flagged for a closer look

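Each of the 7 probes with a breed difference was looked at in each of the 6 groups for an array far from the others of its group, 42 looks in all, of which chance alone flags about 1 in 20. On LZTFL1 O10452, the array LW HS 4 was at 11.66, while the other LW HS arrays ran from 10.23 to 10.74. On the same probe the array CR HS 3 was at 11.81, while the other Creole HS arrays ran from 12.32 to 12.51. Both arrays lay on the side of the other breed, and without LW HS 4 or any other array the difference of this probe stayed between -1.57 and -1.42.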

How the results depend on the processing

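The 7 breed differences kept their direction and passed under every alternative in which they were tested, although that of WDR3 A_72_P245437 went from -1.02 to -1.79 with the processed signal, and 6 to 8 of the 20 probes passed (7 to 8 with an array left out). A_72_P245437 was not tested among probes well above background on all arrays. Of the member probes, 2 passed for F1 minus the parental mean with the processed signal, against 5 to 6 with an array left out. No paired analysis was possible because the replicate numbers were given in accession order.

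Over all probes, LW minus Creole passed for 3039 probes, and for 1827 with the array with 2 breed labels taken as Creole (2570 to 3526 with an array left out). Heat passed for 10, and for 24 with the processed signal, 32 with that array left out, 92 with slide as a fixed block, 54 with slide as a random block and 6 with array weights (6 to 37 with an array left out). F1 minus the parental mean passed for 1313, and for 3264 with array weights (539 to 2258 with an array left out). It was below 1313 by over 1.5 times without F1 HS 1 (726), F1 HS 2 (539), F1 TN 2 (787), F1 TN 4 (748), F1 TN 5 (870) or F1 HS 5 (838), and above by as much without F1 HS 3 (2258). The interaction passed for 0 to 1 with an array left out. Partner probes passed for LW minus Creole 2 times with the array taken as Creole and 9 times with array weights (3 to 8 with an array left out), and neighbour probes 6 times with the array taken as Creole. The cause was not tested.

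HS minus TN, which passed on no member probe, changed sign on RGP1 A_72_P501524 to -0.0500 with the array taken as Creole, -0.0208 with it left out, -0.107 with array weights and between -0.0261 and 0.0807 with an array left out. It turned to 0.000856 on C1D A_72_P220612 with the processed signal and 0.00174 with the array taken as Creole, to 0.0173 on WDR3 A_72_P245437 with the processed signal, and on WDR3 A_72_P689619 to 0.0329 with array weights and between -0.0585 and 0.0352 with an array left out.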
